A study of Mus musculus with 11 samples.

Results

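The transcripts described are those of 8 genes of the chemokine system that draws eosinophils and type 2 T cells into the airway, namely the ligands Ccl11, Ccl24, Ccl8, Ccl17 and Ccl22 and the receptors Ccr3, Ccr4 and Ccr8. They were picked by symbol and not by level, and all 8 were found among the 21899 genes listed in the deposited table. RNA was sequenced from the airways of wild-type male BALB/c mice of 6 to 8 weeks. The 3 libraries of the PBS group came from nonsensitized mice that received PBS only. The 4 libraries labelled OL (OVA/LPS/Vehicle) came from mice sensitized intraperitoneally with ovalbumin and alum on days 0 and 7. These mice were challenged intranasally with ovalbumin on days 14 to 17, were given 50 ng of LPS intranasally on days 19 and 21, and received vehicle intratracheally on days 21 to 23. The 4 libraries labelled OLG (OVA/LPS/GGsTop) came from mice treated in the same way, with 0.5 mg/kg GGsTop in place of vehicle. GGsTop inhibits γ-glutamyl transpeptidase, the enzyme that starts the breakdown of extracellular glutathione. Tissue was taken on day 25. The labels name the tissue trachea, while the methods of the study describe airways separated from the parenchyma and used without the trachea. The OL libraries are numbered 12, 34, 56 and 78, and whether a library holds 1 mouse or a pool is not given in the sources used here, so that p-values measure only the spread between libraries.

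CCL11 and CCL24 are eotaxins, which act through CCR3, the main chemokine receptor of eosinophils. CCL17 and CCL22 act through CCR4, and mouse CCL8 through CCR8. Both receptors are found on type 2 helper T cells and on regulatory T cells. Several of the ligands are known to be induced by IL-4 and IL-13 through STAT6, in stromal and epithelial cells for CCL11 and in macrophages and dendritic cells for CCL17, CCL22 and CCL24.

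Levels are FPKM, fragments divided by the exon length in kilobases and by the size of the library. Library totals recovered from the steps of the FPKM values ran from 14513136 to 18632382 fragments, so that 1 fragment per kilobase was worth 0.0537 to 0.0689 FPKM. Several libraries stood apart. OL 12, OL 34 and OL 56 held thyroid and parathyroid transcripts, with Tg at 90.6, 166 and 303 FPKM and Pth at 5.997, 91.8 and 224 FPKM, and OL 12 held 8.53 FPKM of Rag1, a gene of immature lymphocytes, against at most 0.0976 FPKM elsewhere. The slope of expression on GC content per 10 percentage points was 0.53 (log2) in PBS 3, between -0.26 and -0.19 in the OL libraries and between 0.05 and 0.11 in the other libraries.

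**Figure D1:**
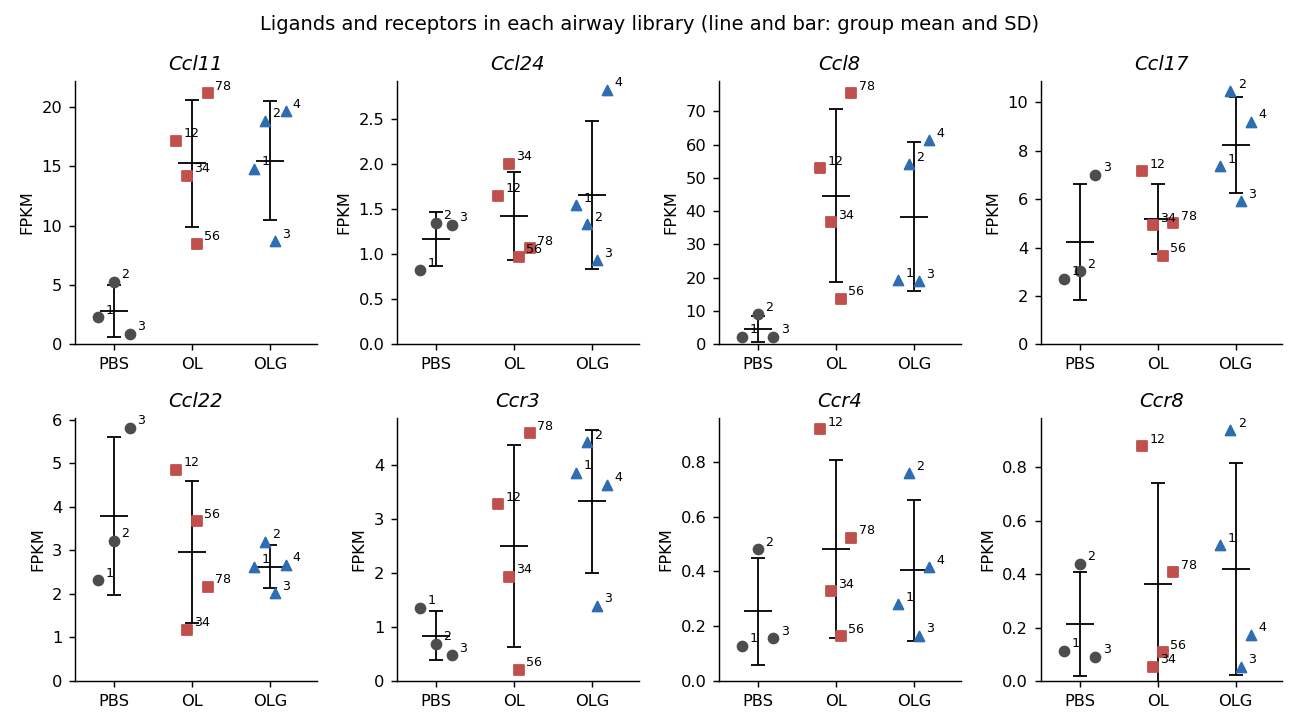
FPKM of the 8 transcripts in each library, with 1 panel per gene and the library number beside each point; the line and bar mark the group mean and SD, and each panel has its own scale starting at 0. For Ccl11 and Ccl8 every OL and OLG library lies above the 3 PBS libraries, whereas the other ligands overlap between the groups.

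Ccl11 (ENSMUSG00000020676, chr11:82057823-82062955, plus strand) encodes eotaxin-1. It stood at 2.27, 5.25 and 0.893 FPKM in PBS 1 to 3. The OL libraries 12, 34, 56 and 78 held 17.2, 14.2, 8.46 and 21.2 FPKM, and OLG 1 to 4 held 14.8, 18.8, 8.67 and 19.7 FPKM. Every OL and OLG library was above every PBS library, and OL and OLG covered the same range. The group means were 2.80 ± 2.23 (SD, n = 3), 15.3 ± 5.35 (n = 4) and 15.5 ± 5.03 (n = 4) FPKM. Ccl11 rose in OL against PBS by 2.20 on the log2(FPKM + 1) scale (SE 0.40, limma adjusted p = 0.0045) and in OLG against PBS by 2.23 (SE 0.40, limma adjusted p = 0.020). OLG against OL gave a difference of 0.03 (95% interval -0.79 to 0.85, limma adjusted p = 0.97). A different number of producing cells and a different amount of RNA per cell cannot be told apart in such bulk samples, for this gene or for the genes that follow.

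Ccl24 (ENSMUSG00000004814, chr5:135569937-135573049, minus strand), which encodes eotaxin-2, was lower than Ccl11 in all 8 challenged libraries. It was at 0.820, 1.34 and 1.33 FPKM in the PBS libraries, at 1.64, 2.003, 0.969 and 1.06 FPKM in OL, and at 1.54, 1.33, 0.930 and 2.82 FPKM in OLG. The 3 groups overlapped, and OLG 4 was the highest library. The differences were 0.15 for OL against PBS (95% interval -0.35 to 0.65), 0.26 for OLG against PBS (-0.24 to 0.75) and 0.11 for OLG against OL (-0.35 to 0.57), and none passed the test (limma adjusted p = 0.62, 0.54 and 0.76). Each value rested on 16 to 54 fragments, against 18 to 383 for Ccl11.

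Ccl8 (ENSMUSG00000009185, chr11:82115185-82116799, plus strand) lies 52.2 kb from Ccl11, with Ccl12 as the only protein-coding gene between them. It was the most abundant of the 5 ligands in every challenged library. The PBS libraries held 2.21, 8.96 and 2.21 FPKM. The OL libraries held 52.9, 36.6, 13.6 and 75.4 FPKM and the OLG libraries 19.2, 54.1, 18.98 and 61.4 FPKM. No challenged library fell into the range of PBS, while OL and OLG overlapped, each with libraries under 20 and above 50 FPKM. Mean levels were 4.46 ± 3.90 FPKM in PBS, 44.6 ± 26.1 in OL and 38.4 ± 22.5 in OLG, so that the mean of OL was 10.01 times and that of OLG 8.61 times that of PBS. Ccl8 rose by 3.05 (log2(FPKM + 1), SE 0.62, limma adjusted p = 0.0060) in OL and by 2.87 (SE 0.62, limma adjusted p = 0.035) in OLG, both against PBS. The difference between OLG and OL was -0.18, with a 95% interval of -1.43 to 1.08 (limma adjusted p = 0.86).

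The summed level of 8 fibroblast markers was 328, 519 and 372 FPKM in PBS 1 to 3, 357, 406, 293 and 477 FPKM in the OL libraries and 312, 420, 363 and 573 FPKM in OLG 1 to 4. PBS 2, OL 78 and OLG 4, the highest of their groups for this sum, were also the highest of their groups for Ccl11 and Ccl8. The lowest libraries were the same in OL, where OL 56 was also the lowest of all 11 libraries for macrophage markers (196 FPKM), and not in PBS or OLG, where PBS 1 and OLG 1 had the lowest sum and PBS 3 and OLG 3 the lowest Ccl11 and Ccl8. PBS 2 was the highest of PBS for the adipocyte, smooth muscle and skeletal muscle sums too. Fibroblast markers were not alone in this. The summed level of 16 genes that respond to IL-4 and IL-13 was highest in OL 78 and OLG 4 (7330 and 6494 FPKM). It was lowest in OL 56 and OLG 3 (2779 and 1626 FPKM), as were Ccl11 and Ccl8, while in PBS it was highest in PBS 3 (214 FPKM). Most of this sum in the OL and OLG libraries came from Retnla, at 4764 FPKM in OL 78 and 4025 FPKM in OLG 4. Other genes of the 16 ranked the libraries differently, such as Arg1 and Socs1, which were highest in OL 12. The macrophage sum was highest in OL 78 (326 FPKM) within OL and in OLG 2 (350 FPKM) within OLG. None of the 8 fibroblast markers was called higher in either comparison with PBS, and Pdgfra and Col1a1 were called lower in OL against PBS. Dcn was higher in OL than in PBS by 1.32 without a call (limma adjusted p = 0.071). The part of fibroblasts, of macrophages or of a response to IL-4 and IL-13 in the levels of Ccl11 and Ccl8 was not tested. Without OL 34 and OL 56, a choice made after the data were seen, Ccl11 was higher in OL than in PBS by 2.57 and Ccl8 by 3.78, each with a limma adjusted p of 0.047, while the number of genes called fell from 5327 to 131. After correction for GC content the differences were 1.79 and 2.95 (limma adjusted p = 0.012 and 0.013).

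The 250 bases before the RefSeq start of Ccl8 are shown because Ccl8 had the largest difference of the members, and those of the pair on chromosome 8 because Ccl17 and Ccl22 lie 58.8 kb apart and gave different values. The capitals mark matches to a TATAAA box or to the spaced palindromes TTCNNNGAA and TTCNNNNGAA that STAT factors bind, sought on both strands. Ccl8 carried TATAAA from 32 to 27 bases before its start. Ccl17 carried 1 match to each palindrome, TTCNNNNGAA from 154 to 145 and TTCNNNGAA from 99 to 91 bases before its start. The sequence of Ccl22 is 156 bases long and ends where the gene begins in GENCODE, upstream of its RefSeq start at 94745684. The bases nearest that start, where a match such as that of Ccl8 would lie, were not read. The part of Ccl22 that was read held no match to any of these motifs, which leaves the unread bases undecided. Of 32851 RefSeq promoters read over the full 250 bases, a longer stretch than for Ccl22, 12.4% held TATAAA, 7.02% TTCNNNGAA and 5.85% TTCNNNNGAA. A match is a description of the letters only. RefSeq promoters were found for 6 of the 8 members and not for Ccl11 and Ccl24. The sequences and all gene positions are on GRCm38, whereas the processing notes of the submitters name mm39, and the plus strand is shown.
Ccl8, chr11:82114935-82115184: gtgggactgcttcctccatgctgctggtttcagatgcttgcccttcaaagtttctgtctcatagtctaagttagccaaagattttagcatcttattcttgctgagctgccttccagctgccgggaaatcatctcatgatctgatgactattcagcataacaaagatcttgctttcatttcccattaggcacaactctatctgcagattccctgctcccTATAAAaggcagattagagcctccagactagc
Ccl17, chr8:94810203-94810452: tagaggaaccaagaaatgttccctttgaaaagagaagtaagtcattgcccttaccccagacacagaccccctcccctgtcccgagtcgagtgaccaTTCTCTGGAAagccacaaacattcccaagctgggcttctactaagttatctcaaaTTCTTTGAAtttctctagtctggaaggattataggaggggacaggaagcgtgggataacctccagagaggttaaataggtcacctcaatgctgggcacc
Ccl22, chr8:94745434-94745589: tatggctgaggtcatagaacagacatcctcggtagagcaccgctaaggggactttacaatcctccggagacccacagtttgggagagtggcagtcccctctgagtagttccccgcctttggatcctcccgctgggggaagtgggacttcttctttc

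Ccl17 (ENSMUSG00000031780, chr8:94810453-94812036, plus strand), which encodes TARC, was at 2.71, 3.01 and 6.996 FPKM in the PBS libraries. OL held 7.15, 4.92, 3.66 and 5.01 FPKM and OLG held 7.36, 10.5, 5.92 and 9.20 FPKM. Of the OLG libraries 3 were above every library of the other groups, and OLG 3 was inside their range. The difference between OLG and PBS was 0.88 (95% interval 0.28 to 1.49, unadjusted p = 0.0082), and it did not pass the test over all genes (limma adjusted p = 0.11). OLG against OL gave 0.58 (95% interval 0.02 to 1.14, unadjusted p = 0.044, limma adjusted p = 0.15), and OL against PBS gave 0.30 (-0.30 to 0.91, limma adjusted p = 0.39). When limma weighted the libraries by their own spread, Ccl17 passed in all 3 comparisons (limma adjusted p = 0.0085, 0.020 and 0.0019 for OL against PBS, OLG against OL and OLG against PBS). That fit gave PBS 3, the PBS library with the highest Ccl17, a weight of 0.153 against 3.89 for PBS 1.

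Ccl22 (ENSMUSG00000031779, chr8:94745590-94751699, plus strand), which encodes MDC, lies upstream of Ccl17, with Cx3cl1 as the only protein-coding gene between. It was at 2.31, 3.22 and 5.82 FPKM in PBS, at 4.86, 1.17, 3.67 and 2.16 FPKM in OL, and at 2.63, 3.20, 2.02 and 2.67 FPKM in OLG. The groups overlapped in each comparison, the OLG libraries lay closest together, and PBS 3 and OL 12 were the highest. OL against PBS gave -0.30 (95% interval -1.005 to 0.40), OLG against PBS -0.34 (-1.04 to 0.36) and OLG against OL -0.04 (-0.69 to 0.61), with limma adjusted p = 0.46, 0.56 and 0.95. PBS 3, the highest library for Ccl22 and the highest of PBS for Ccl17, was the library with the steep GC slope. Without it the difference of Ccl17 in OL against PBS was 0.65 (limma adjusted p = 0.070) and that of Ccl22 was -0.01 (limma adjusted p = 0.98).

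Ccr3 (ENSMUSG00000035448, chr9:124021972-124031689, plus strand) was at 1.36, 0.690 and 0.476 FPKM in PBS, at 3.27, 1.93, 0.211 and 4.59 FPKM in OL, and at 3.86, 4.42, 1.39 and 3.63 FPKM in OLG. All 4 OLG libraries were above PBS, OLG 3 by a narrow margin. In OL, library 56 was below PBS, at 11 fragments, and the other 3 were above it. Ccr3 differed by 0.75 (SE 0.45, limma adjusted p = 0.20) in OL and by 1.20 (SE 0.45, unadjusted p = 0.023, limma adjusted p = 0.17) in OLG, both against PBS, and by 0.45 (95% interval -0.47 to 1.37, limma adjusted p = 0.49) in OLG against OL. Without OL 56 the difference of OL against PBS was 1.19 and passed the test (limma adjusted p = 0.029). Without OL 34 and OL 56 the difference of OLG against OL turned to -0.24 (limma adjusted p = 0.72), and after GC correction that of OL against PBS was 0.20 (limma adjusted p = 0.77). OL 34 and OL 56 were the lowest OL libraries for Ccr3, so that leaving them out could only lower the difference of OLG against OL.

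Among other markers of eosinophils, Siglecf, which alveolar macrophages share, ran from 1.91 to 8.79 FPKM and was not called. Epx, which encodes eosinophil peroxidase, was at 0 in 5 of 11 libraries and reached 0.262 FPKM, and Prg3 was at 0 in 8 and reached 0.680 FPKM in PBS 2. Prg2, which encodes major basic protein, rose by 0.58 in OL against PBS (SE 0.19, limma adjusted p = 0.030) and by 1.19 in OLG against PBS (SE 0.19, limma adjusted p = 0.014), with adjusted p of up to 0.11 and 0.078 over the alternatives, both without PBS 1. It was the only called gene of the 7 eosinophil markers in the fit, out of 9 measured. The summed list ran from 102 to 153 FPKM in PBS, 64.1 to 190 in OL and 95.8 to 183 in OLG, and most of it came from Ear2, which shares reads with near-identical Ear genes and is therefore uncertain. The part of eosinophil number in the level of Ccr3 was not tested.

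Ccr4 (ENSMUSG00000047898, chr9:114490316-114504916, minus strand) and Ccr8 (ENSMUSG00000042262, chr9:120092114-120094906, plus strand) had means of 0.392 and 0.342 FPKM and were below the minimum of 0.5 FPKM for the fit across genes. For them the difference in mean log2(FPKM + 1) was set against its exact two-sided permutation distribution, which cannot go below p = 0.057 for 3 against 4 libraries or p = 0.029 for 4 against 4. Ccr4 was at 0.129, 0.480 and 0.156 FPKM in PBS, 0.918, 0.327, 0.162 and 0.522 FPKM in OL, and 0.279, 0.757, 0.164 and 0.415 FPKM in OLG. The groups overlapped, with exact permutation p = 0.29 for OL against PBS, 0.46 for OLG against PBS and 0.74 for OLG against OL. Ccr8 was at 0.113, 0.439 and 0.0914 FPKM in PBS, 0.878, 0.0538, 0.107 and 0.407 FPKM in OL, and 0.509, 0.938, 0.0539 and 0.173 FPKM in OLG. It overlapped between groups too, with exact permutation p = 0.86, 0.46 and 0.74 for the same comparisons. These values came from 6 to 44 fragments for Ccr4 and 1 to 16 for Ccr8. OL 12 was the highest OL library for both receptors, and it had the highest summed level of 7 T cell markers, 63.0 FPKM against 14.03 to 30.4 in the other OL libraries, beside its transcripts of immature thymocytes. None of the 7 T cell markers was called in any comparison.

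**Figure D2:**
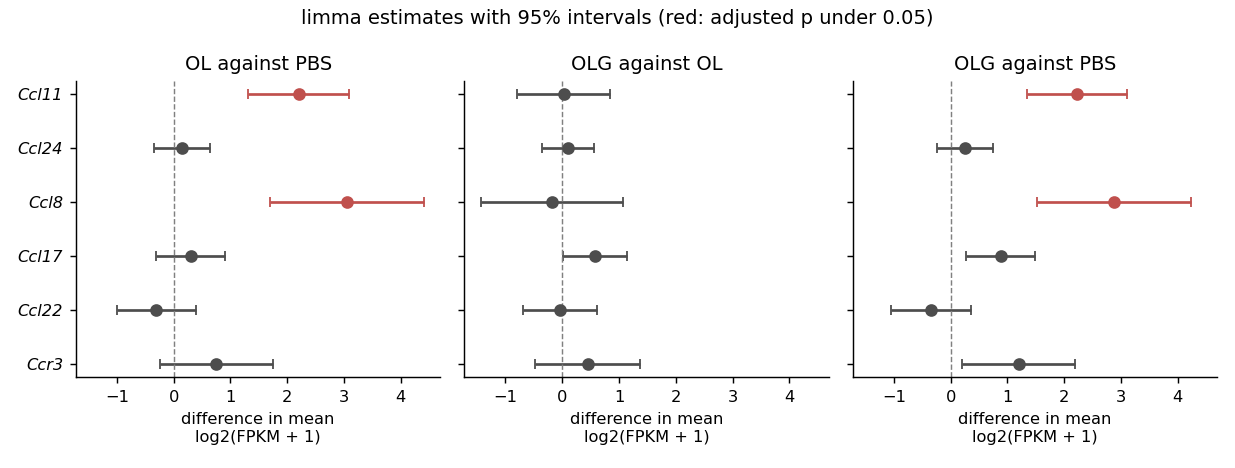
Differences in mean log2(FPKM + 1) for the 6 members in the fit across genes, with 95% intervals from limma, for OL against PBS, OLG against OL and OLG against PBS; red marks an adjusted p under 0.05. Ccl11 and Ccl8 are red in both comparisons with PBS, and none is red in OLG against OL.

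Of the 6 members in the fit, 2 rose and 0 fell in OL against PBS, where 38.0% of all 14004 genes tested were called and 15.9% were higher. A share of 2 in 6 was close to the 38.0% called in either direction and above the 15.9% called higher. With 6 members it was not read as a difference from either share. In OLG against PBS, 2 rose and 0 fell against 2.88% of all genes called and 2.06% higher. In OLG against OL, 0 of 6 passed limma's test, where 8.71% of all genes were called, and Ccl17 alone had an unadjusted p under 0.05. All OL libraries were above all PBS libraries for 2 of the 8 members, beside 18.7% of the 14004 genes tested. All OLG libraries were above PBS for 3 of the 8, beside 7.22% of those genes. The 8 members include Ccr4 and Ccr8, which overlapped between groups and are not among the 14004 genes. With so few members, neither these counts nor the calls in OLG against PBS were read as a difference from the shares. The median difference of the 6 members was 0.53 in OL against PBS, 1.04 in OLG against PBS and 0.07 in OLG against OL, beside -0.01, 0.01 and 0.03 over all genes. Both comparisons with PBS share the PBS libraries.

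The calls in OL against PBS held without each single library in turn, with limma adjusted p of 0.0011 to 0.016 for Ccl11 and 0.0021 to 0.027 for Ccl8. Those in OLG against PBS did not. Ccl11 lost its call without PBS 1, PBS 3, OLG 1 or OLG 2 (limma adjusted p = 0.092, 0.089, 0.065 and 0.056). Ccl8 lost its call without PBS 1, PBS 3, OLG 1, OLG 2 or OLG 4 (limma adjusted p = 0.13, 0.14, 0.070, 0.091 and 0.076). The differences themselves stayed between 1.81 and 2.67 for Ccl11 and between 2.59 and 3.42 for Ccl8. Scaling every library to the same FPKM total moved the median of all genes by -0.14 in OL against PBS and the share of called genes that were higher from 41.9% to 21.2%, from 79.2% to 92.9% in OLG against OL and from 71.5% to 50.7% in OLG against PBS. Scaling to the same median brought that share to 49.3% in OLG against OL. Ccl11 and Ccl8 remained called in both comparisons with PBS under these scalings and with the mitochondrial genes left out.

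**Figure D3:**
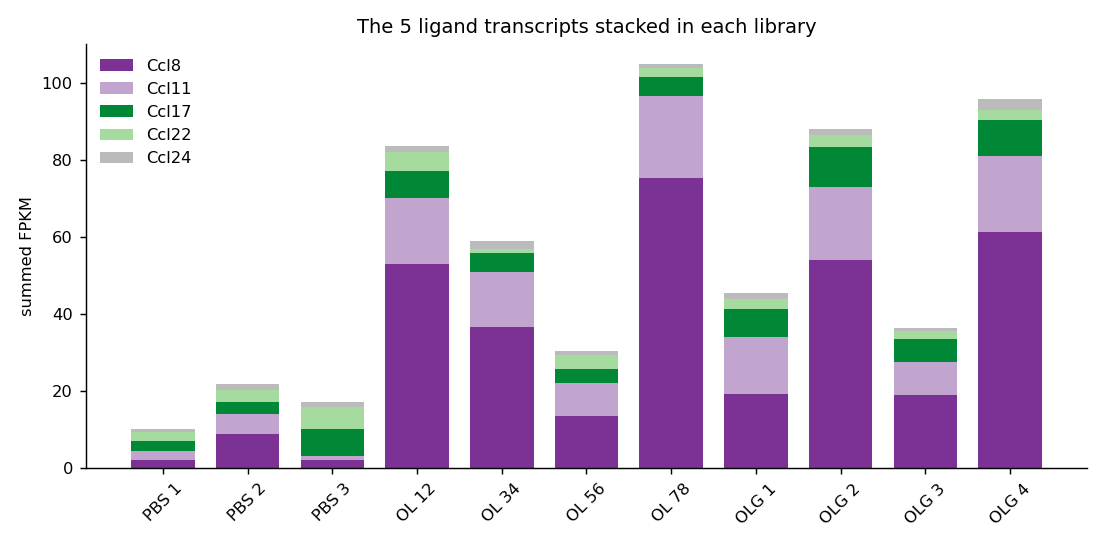
Summed FPKM of the 5 ligand transcripts in each library, stacked by gene from Ccl8 at the base to Ccl24 at the top. The 8 challenged bars reach 30.4 to 105 FPKM and are mostly Ccl8 and Ccl11, while the 3 PBS bars reach 10.3 to 21.8 FPKM with a larger share of Ccl17 and Ccl22.

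Summed over the 5 ligands, FPKM was 16.4 ± 5.77 in PBS, 69.5 ± 32.1 in OL and 66.4 ± 29.7 in OLG. Ccl8 and Ccl11 together made up 43.4%, 65.2% and 18.0% of this sum in PBS 1 to 3, 72.7% to 92.1% in the OL libraries and 74.7% to 84.6% in the OLG libraries. In all 8 challenged libraries the order of level, which FPKM gives per exon length, began with Ccl8 followed by Ccl11. Ccl17 exceeded Ccl22 in 7 of 8 challenged libraries and in 2 of 3 PBS libraries, and Ccl24 was the lowest of the ligands in 6 of 8. In PBS no such order held. Ccl17 led in PBS 1 and PBS 3 and Ccl8 in PBS 2, and Ccl8 was above Ccl11 in 2 of 3.

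**Figure D4:**
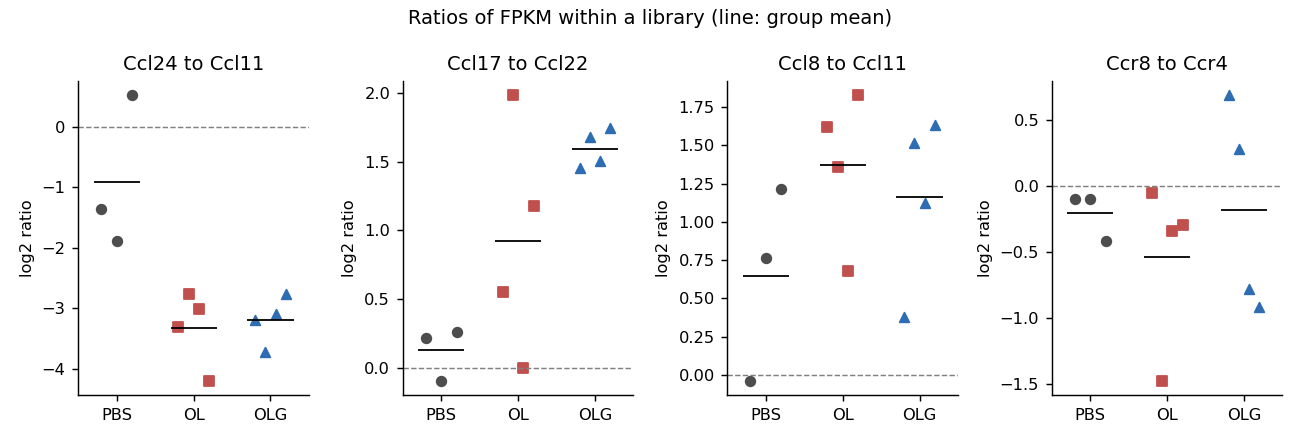
Log2 ratio of the FPKM of 2 members within a library, with 0.1 FPKM added to each, for 4 pairs; each point is a library and the line is the group mean. The Ccl24 to Ccl11 ratio of every challenged library is below the 3 PBS libraries, and the Ccl17 to Ccl22 ratio of the 4 OLG libraries is above them.

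Ratios between members were taken within each library. The log2 ratio of Ccl24 to Ccl11 was -1.36, -1.89 and 0.52 in PBS, between -4.19 and -2.77 in OL and between -3.73 and -2.76 in OLG, with no overlap between PBS and either challenged group. The difference from PBS was -2.41 in OL and -2.28 in OLG, each at the smallest exact permutation p that 3 against 4 libraries allow (0.057, 0.23 after adjustment over 12 ratio tests). With 1 FPKM added in place of 0.1 these differences were -2.05 and -1.97. The log2 ratio of Ccl17 to Ccl22 was 0.22, -0.09 and 0.26 in PBS, 0.55, 1.98, -0.0031 and 1.17 in OL, and 1.45, 1.68, 1.51 and 1.75 in OLG. The 4 OLG libraries were close together, at 1.60 ± 0.14 (SD), and above PBS by 1.47 (exact permutation p = 0.057, adjusted 0.23), whereas OL spread over both ranges at 0.93 ± 0.85. OLG against OL gave 0.67 (exact permutation p = 0.20, adjusted 0.40). The ratios of Ccl8 to Ccl11 and of Ccr8 to Ccr4 overlapped between groups in every comparison, with adjusted exact permutation p of 0.40 to 0.97. None of the 12 ratio tests passed after adjustment.

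**Figure D5:**
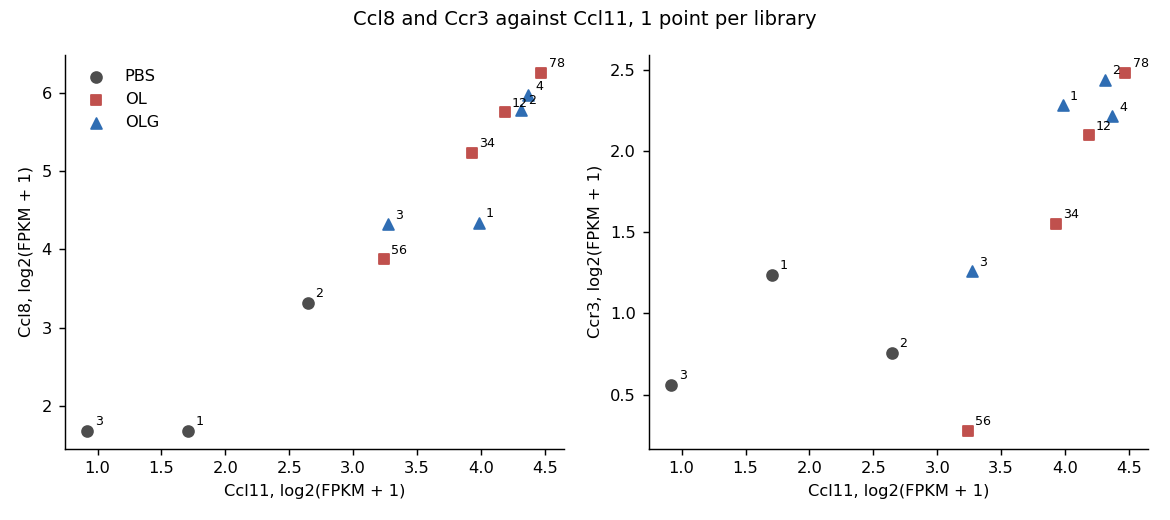
Ccl8 (left) and Ccr3 (right) against Ccl11 in each library, on the log2(FPKM + 1) scale, with the library number beside each point. OL 56 and OLG 3 are the lowest challenged libraries for Ccl11, Ccl8 and Ccr3 alike.

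The spread between challenged libraries was shared by some members. Over the 8 OL and OLG libraries Ccl8 followed Ccl11 with Pearson r = 0.91 (exact permutation p = 0.00062, adjusted over 28 pairs of members 0.016) and Spearman rho = 0.98 (exact permutation p = 0.0004, adjusted 0.011). Without OL 56 and OLG 3, the libraries farthest from the median of Ccl11, r was 0.85. Within OL r was 0.9997 and within OLG 0.82, with 4 libraries each. Ccr3 followed Ccl11 with r = 0.90 (exact permutation p = 0.0011, adjusted 0.016) and rho = 0.88 (exact permutation p = 0.0072, adjusted 0.10), and with r = 0.73 without the same libraries. No other pair passed the adjusted exact permutation test for r. The next was Ccr4 with Ccr8 at r = 0.85 (exact permutation p = 0.0081, adjusted 0.075), which fell to 0.49 without OL 12 and OLG 2. Ccl22 had an r of 0.013 with Ccl8 and of 0.055 with Ccl11 (exact permutation p = 0.98 and 0.89).

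Other genes of the same system and markers of other cells were read beside the members, and many of their calls depended on single libraries or on GC content. Of 47 such calls in OL against PBS, 28 held after GC correction, 27 without PBS 3 and 5 without OL 34 and OL 56, those of Retnla, Chil3, Chil4, Clca1 and Ccr7. Of 14 in OLG against PBS, 13 held after GC correction, 4 without PBS 1 or without PBS 3, 5 without OLG 1, 8 without OLG 2 and 8 with the replicate number as a block. Of 8 in OLG against OL, none held after GC correction, without OL 34, without OL 56 or without OLG 1, 1 held without OL 78, OLG 2 or OLG 3, and 5 without OL 12 or OLG 4.

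Of 4 other ligands of these receptors, 3 were in the fit. Ccl7, a monocyte chemoattractant that also binds CCR3, rose in OL against PBS by 1.05 (SE 0.31, limma adjusted p = 0.022), and Ccl28, a mucosal ligand of CCR3 and CCR10, rose by 1.13 (SE 0.26, limma adjusted p = 0.0086). Ccl28 fell by 1.13 in OLG against OL (SE 0.24, limma adjusted p = 0.024), where Ccl11 and Ccl8 gave 0.03 and -0.18. These calls of Ccl7 and Ccl28 were lost after GC correction (limma adjusted p = 0.12 for Ccl7, 0.064 and 0.081 for Ccl28), and that of Ccl7 also without PBS 1, PBS 3 or OL 78. Ccl5 ran from 3.45 to 17.3 FPKM and was not called, and Ccl1, a ligand of CCR8, did not exceed 0.109 FPKM. Of 4 scavengers and processing enzymes of chemokines, Ackr4 fell in both comparisons with PBS, by 0.64 in OL and by 0.93 in OLG (limma adjusted p = 0.017 and 0.024), and none rose. Without PBS 1 its adjusted p was 0.059 and 0.10, and without PBS 3 it was 0.040 and 0.075. Ackr2, which takes up inflammatory CC chemokines, ran from 10.8 to 35.1 FPKM and Dpp4, a peptidase that trims CCL11 and CCL22, from 10.3 to 32.0 FPKM, without a call.

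Among 7 type 2 cytokines and alarmins, 3 were in the fit and Il4 alone rose, by 0.76 in OL against PBS (SE 0.25, limma adjusted p = 0.032), a call lost under 8 of 20 alternatives, among them GC correction (limma adjusted p = 0.16) and leaving out PBS 3 (0.11). Il33 ran from 13.5 to 31.4 FPKM and Tslp from 0.726 to 3.67 FPKM. Il5, Il9, Il13 and Il25 did not exceed 0.316 FPKM in any library. Of 12 genes of type 2 receptors and signalling in the fit, Il13ra1 and Il1rl1 rose and Il4ra, Crlf2, Jak3, Tyk2 and Stat6 fell in OL against PBS, Tyk2 and Stat6 rose in OLG against OL, and Il1rl1 rose in OLG against PBS. After GC correction the adjusted p of Il1rl1 was 0.45 in OL and 0.078 in OLG. The fall of Stat6 in OL against PBS was 0.55 and its rise in OLG against OL was 0.46 (SE 0.13 and 0.12, limma adjusted p = 0.0088 and 0.039), and neither call held once GC content was corrected for (limma adjusted p = 0.058 and 0.19). Of 16 genes that respond to IL-4 and IL-13, 9 rose in OL and 6 in OLG, both against PBS, and none fell or differed between OLG and OL. Retnla, Chil3, Chil4, Clca1, Muc5ac and Spdef rose in both, and Fcgbp, Foxa3 and Itln1 in OL. Retnla, for example, rose by 5.98 in OL (SE 0.42, limma adjusted p = 0.00019). Of 9 genes of eosinophil homing and adhesion in the fit, none rose, Itgb7 and Icam1 fell in OL against PBS, and Vcam1 fell in OLG against OL.

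Markers of cells known to make or to answer these ligands were read in the same way. Of 12 dendritic cell markers, Ccr7, Cacnb3 and Relb fell in OL against PBS and Ccr7 and Relb in OLG against PBS. Ccr7 fell by 1.20 and 1.43 (SE 0.21 in both, limma adjusted p = 0.0040 and 0.010). The list as a whole did not fall by its median difference, 0.03 in OL and 0.06 in OLG, both against PBS. The sum of the 12 was 89.5 to 103 FPKM in PBS, 73.6 to 85.5 in OL and 70.9 to 93.1 in OLG. Of 10 macrophage markers in the fit, C1qa rose and Csf1r fell in OL against PBS, and Csf1r rose in OLG against OL. The sum of all 11 macrophage markers measured was 207 to 271 FPKM in PBS, 196 to 326 in OL and 290 to 350 in OLG. Of 8 markers of type 2 and regulatory T cells in the fit, Il1rl1 and Ikzf2 rose in OL and Il1rl1 in OLG, both against PBS. Of 7 airway epithelial markers, Scgb3a2, Foxj1, Epcam and Muc5b rose in OL against PBS, and Foxj1 and Muc5b in OLG against PBS too. Of 6 alveolar markers, Sftpb and Ager fell in OL against PBS, and the call of Ager held under 11 of 20 alternatives. The median difference of the alveolar list was -0.72 in OL against PBS. Its members Hopx and Lamp3 were not called. Hopx ran from 97.4 to 161 FPKM in OL and from 91.1 to 132 FPKM in PBS, and Lamp3 from 50.7 to 87.1 and from 47.6 to 74.2 FPKM. After GC correction the calls lost in OL against PBS were those of Ager, Cacnb3, Ccl28, Ccl7, Col1a1, Crlf2, Csf1r, Csf3r, Ikzf2, Il1rl1, Il4, Il4ra, Itgb7, Jak3, Ms4a2, Pth, Smtn, Stat6 and Tyk2. The part of these cell types in the differences of the members was not tested.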

How the data were processed

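Airway poly(A) RNA was sequenced on a NovaSeq instrument. The authors deposited FPKM per gene and library, with Ensembl identifiers. Their processing notes name cutadapt 1.15, HISAT2 2.0.5, HTSeq 0.9.1 and mm39. Symbols came from GENCODE M21 (21795 of 21899 identifiers matched). FPKM times exon length gave whole fragments, within 0.05, in every library for 97.8% of genes, all 8 members included.

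For genes whose mean level reached 0.5 FPKM, log2(FPKM + 1) was fitted in 1 model over 11 libraries with limma 3.58.1 (R 4.3.3) and a mean-variance trend, adjusted by the Benjamini-Hochberg method over 14004 genes and called under 0.05. This scale understates differences of low genes. The fit was also run on simulated data, with values drawn independently for each gene and library. Such data do not hold the library-wide deviations seen here, so that run does not bear on how these affect the calls. Members below the minimum and ratios with 0.1 FPKM added were compared by exact permutation in Python 3.11.15. Named were all members, the called genes of each pathway and marker list with the most abundant ones, and the 3 genes most correlated with each member, of which 1 is not reported here. The members and lists were chosen with earlier results of these data known.

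PBS and OLG share the numbers 1 to 3. Deviations of same-numbered libraries from their group means correlated at 0.37, 0.43 and 0.43, and a block on the number was therefore tried. Nothing in the labels states a pairing, and PBS 2 correlated more with OLG 4 (0.64). Other alternatives were the pseudocount, the minimum level, scaling, library weights, GC correction by splines with 5 degrees of freedom, voom on recovered fragments and leaving out libraries.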

Additional observations from a re-analysis of the deposited data

How the results depend on the processing

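The number of members called in OL against PBS was 2 or 3 under every alternative tried, with Ccl17 as the third with library weights and Ccr3 without OL 56. In OLG against PBS it fell from 2 to 1 with no minimum level, with the robust fit and with voom on recovered fragments, in each case by the loss of Ccl8, and to 0 in a fit of only the groups compared. Leaving out 1 library at a time gave 0 to 2. In OLG against OL it rose from 0 to 1, Ccl17, with library weights. The calls of Ccl11 and Ccl8 held with the replicate number as a block (limma adjusted p = 0.012 and 0.0013), with and without GC correction, and the block changed no other call of a member. The same 6 libraries without the block gave 0 members and a limma adjusted p of 0.15 for both genes, a fit added after the data were seen. Over all genes the block called 62, against 14 in those 6 libraries without it and 403 in the fit of all 11 libraries.

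Where differences were small their sign was not stable. In OLG against OL the difference of Ccl11 was -0.019 with libraries scaled to the same median, -0.12 with library weights and -0.34 without OL 34 and OL 56, and that of Ccr3 was -0.24 without those libraries. OL 34 and OL 56 were the lowest OL libraries for both genes, so that leaving them out could only lower these differences. Ccl22 gave 0.029 with the same FPKM total, 0.17 with library weights and 0.0015 with voom in that comparison, and 0.058 with library weights in OLG against PBS. Leaving out 1 library at a time, the difference of OLG from OL ran from -0.21 to 0.26 for Ccl11, -0.65 to 0.15 for Ccl8, -0.29 to 0.18 for Ccl22, -0.082 to 0.25 for Ccl24, -0.18 to 0.062 for Ccr4 and -0.11 to 0.23 for Ccr8, and that of OL from PBS for Ccr8 from -0.030 to 0.27. For the log2 ratios it ran from -0.17 to 0.31 for Ccl24 to Ccl11 and -0.44 to 0.053 for Ccl8 to Ccl11 in OLG against OL, and from -0.26 to 0.27 for Ccr8 to Ccr4 in OLG against PBS. The cause of the other changes of sign was not tested.

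Over all genes the number called in OL against PBS went from 5327 to 2904 after GC correction and to 3064 without PBS 3. In OLG against OL it went from 1220 to 56 after GC correction, to 698 with the same median, to 2181 with the same FPKM total, to 3525 with only the groups compared, to 5214 with library weights, to 1 without OL 34 and OL 56, and to between 24 and 1052 without single libraries. In OLG against PBS it went from 403 to 208 with no minimum, to 39 with only the groups compared, to 2557 with library weights, and to between 29 and 1597 without single libraries. The values of Ccl24, Ccr4 and Ccr8 rested on 1 to 54 fragments, and at such levels the log2(FPKM + 1) scale narrows both a difference and its SE.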

Other observations

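The genes most like each member over the 11 libraries, by Pearson r of log2(FPKM + 1) and as a description without a test, differed between the members. The libraries of all 3 groups enter these values, so that a shared difference between PBS and the challenged groups is part of them. For Ccl11 they included Ak9 (r = 0.97) and Jchain, the joining chain of secreted immunoglobulins (0.97). For Ccl8 they were Ccl11 (0.97), Katnal2 (0.95) and Glipr1 (0.95), and Ccl11 was thus the nearest of all genes in the fit to its neighbour on chromosome 11. For Ccr3 they were Mgl2, a lectin of macrophages and dendritic cells (0.95), Gm8113 (0.93) and Retnlg (0.92), a gene that is also on the neutrophil list. For Ccl24 they were Aagab (0.91), Cbr3 (0.89) and Coro2a (0.88), for Ccl17 Fbxo44 (0.89), Myo15b (0.89) and Vdr (0.87), and for Ccl22 Tmub1 (0.91), Itpk1 (0.90) and Smim20 (0.90).

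The marker lists not described above gave few calls by limma. In OL against PBS Camp and Ngp rose and Csf3r fell of 7 neutrophil markers, Ms4a2 rose and Kit fell of 6 mast cell and basophil markers, Pdgfra and Col1a1 fell of 8 fibroblast markers, Actg2 and Smtn fell of 6 smooth muscle markers, Tg and Pth rose of 5 thyroid and parathyroid genes, and Acta1 rose of 5 skeletal muscle genes. Without OL 34 and OL 56 the differences of Tg and Pth in OL against PBS went from 4.99 and 4.22 to 2.79 and 1.34 (limma adjusted p = 0.17 and 0.16). In OLG against OL Cpa3 and Tg fell and Smtn rose, and in OLG against PBS Camp rose. None of 6 B cell, 4 immature thymocyte or 6 adipocyte genes in the fit was called in any comparison. No value of a member in OL or OLG stood apart from its group by Dixon's criterion, in 16 groups of 4 libraries examined.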
